A study of Homo sapiens with 12 samples.

Results

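The 10 genes described here make and modify fatty acids: FASN, ACACA, ACACB, ACLY, SCD, ELOVL6, FADS1, FADS2, SREBF1 and ME1. They were taken from a named list, and their binding sites were the deposited peaks whose summit lay within 50 kb of the gene's RefSeq span on hg38. They are 10 of 19974 protein-coding genes, and the rule gave 6 of 2846 pooled KQ peaks and 38 of 25164 pooled wild-type (WT) peaks on chromosomes 1 to 22 and X. A pooled peak is called reproducible here if a peak of each of the 2 libraries of its group overlapped it by at least 1 bp. The comparison asks whether sites of PPARγ at the lipogenic genes are still found when a pair of its lysines is replaced by glutamine.

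In de novo lipogenesis ACLY turns citrate into acetyl-CoA, the acetyl-CoA carboxylases ACACA and ACACB make malonyl-CoA, and FASN builds palmitate from both with NADPH, part of which ME1 supplies. ELOVL6 lengthens palmitate, SCD introduces the double bond that gives oleate and palmitoleate, and FADS1 and FADS2 desaturate polyunsaturated fatty acids. SREBF1 encodes SREBP-1, the transcription factor best known for switching these genes on. PPARγ is a nuclear receptor that binds DNA with RXR and drives fat storage in adipocytes, where lipogenic enzymes are abundant.

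The KQ group carried flag-tagged PPARγ with the K154/155Q change, and the WT group carried flag-tagged wild-type PPARγ. The design text describes the mutant as acetylation deficient. Both were stable retroviral expression lines of MCF10A-NeuT, a human mammary epithelial line transformed by the NeuT oncogene, and the vector-only ChIP and all input libraries of the 12 samples were not analysed here. Each group had 2 ChIP libraries, and the labels do not say whether these came from separate cultures, so differences between libraries may be technical. The labels name an antibody to PPARγ and the design text one to the flag tag. With the first of these, receptor from the cells' own gene would be mapped as well, in both groups. Whether a line is clonal is not stated, and peak lists hold no expression, so the mammary identity of the cells was not checked.

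The libraries held 1263 and 1035 peaks for KQ and 18143 and 17859 for WT. Every fold below is the authors' enrichment at the summit over the caller's background. In all 6 lists every fold and p-value of a peak matched a whole number of tags and an expected background (to a relative tolerance of 0.001). These are given as the depth behind a peak. Median background was 2.01 and 1.77 expected tags per summit in the KQ libraries and 1.41 and 0.448 in the WT libraries. A site with no peak is a site below the caller's threshold, and its tag number is not known.

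Promoters under a peak are shown first, because there the peak lies at the start of a gene. The RefSeq promoter table lists 14 windows for 9 of the genes, each running from 250 bases before a start to 50 after it, and has no entry for FASN. A pooled KQ peak overlapped such a window at 0 of 9 genes, against 0.778% of the 15812 protein-coding genes listed, and a reproducible one at 0 of 9 (background 0.101%). A reproducible WT peak did so at SCD, ELOVL6 and ACACA, that is at 3 of 9 genes (background 1.6%). A pooled WT peak did so at 5 of 9 (background 6.84%), with FADS1 and the downstream start of ACACB added. The ACACA peak was not reproducible at −log10 q of at least 5, having a −log10 q of 3.39 in WT library 2. Under KQ a promoter window was reached by 1 peak of library 1, at ACACB, which is in neither pooled list. The 4 windows are given 5′ to 3′ on the gene's strand, with the 41 bases centred on the summit of that peak in capitals (RefSeq, GRCh38.p14).
SCD: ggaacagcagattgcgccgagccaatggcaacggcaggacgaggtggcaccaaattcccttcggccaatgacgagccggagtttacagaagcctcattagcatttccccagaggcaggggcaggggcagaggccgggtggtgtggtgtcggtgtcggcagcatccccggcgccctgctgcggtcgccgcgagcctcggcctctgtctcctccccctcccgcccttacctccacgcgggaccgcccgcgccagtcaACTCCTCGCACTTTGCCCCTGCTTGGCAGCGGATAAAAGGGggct
ELOVL6: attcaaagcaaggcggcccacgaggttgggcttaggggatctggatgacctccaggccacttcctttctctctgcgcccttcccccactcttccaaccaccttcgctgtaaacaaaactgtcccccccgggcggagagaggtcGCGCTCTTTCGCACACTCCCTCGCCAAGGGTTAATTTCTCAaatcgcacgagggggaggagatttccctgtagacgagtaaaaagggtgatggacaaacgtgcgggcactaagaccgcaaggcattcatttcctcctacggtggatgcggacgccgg
ACACA: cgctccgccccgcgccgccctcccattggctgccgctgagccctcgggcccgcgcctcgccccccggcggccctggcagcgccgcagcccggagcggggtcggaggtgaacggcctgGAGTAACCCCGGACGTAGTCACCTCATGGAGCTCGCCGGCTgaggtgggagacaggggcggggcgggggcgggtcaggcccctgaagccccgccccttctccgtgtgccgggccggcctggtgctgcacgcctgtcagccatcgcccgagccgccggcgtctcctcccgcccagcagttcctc
ACACB: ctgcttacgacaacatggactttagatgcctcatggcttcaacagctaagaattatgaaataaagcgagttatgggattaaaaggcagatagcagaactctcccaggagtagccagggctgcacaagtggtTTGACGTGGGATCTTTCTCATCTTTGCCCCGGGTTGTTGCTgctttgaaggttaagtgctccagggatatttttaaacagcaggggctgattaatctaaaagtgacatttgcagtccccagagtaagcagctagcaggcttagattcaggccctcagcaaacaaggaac
The windows are chr10:100346983-100347282 on the plus strand for SCD, chr4:110198566-110198865 on the minus strand for ELOVL6, chr17:37359047-37359346 on the minus strand for ACACA and chr12:109116337-109116636 on the plus strand for ACACB. The ACACA window belongs to the second of its 3 listed starts, inside the gene. Summits lay 25 bases after the start at SCD, and 87, 113 and 99 bases before it at ELOVL6, ACACA and ACACB.

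None of the 14 windows held a direct repeat of AGGTCA with 1 base between the copies, the consensus of a PPAR response element, which 0.0228% of the 35116 listed promoters hold. AGGTCA alone, searched like all motifs on both strands and contained in the repeat, was in 2 of the 14 windows and in 13.8% of all promoters. In the ELOVL6 window it starts 205 bases before the start site, within the WT peak but outside the capitals. The other match was in the window of the third ACACA start, which no pooled peak overlaps. The GC box GGGCGG was in 11 of the 14 windows against 45.0% of all promoters, and CCAAT, the letters read by NF-Y, in 7 against 34.6%. Of the 22132 promoters of protein-coding genes alone, 12456 held the GC box and 7666 held CCAAT. The 2 ACLY windows overlap and each held both motifs, so bases they share are counted in both. The sterol response element TCACNCCAC, read by SREBP, the E-box CACGTG and the LXR-type direct repeat of AGGTCA with 4 bases between the copies were in 0 of the 14, against 1.13%, 7.26% and 0.0199% of all promoters. Only exact matches to the letters given (N is any base) were counted. A count of 0 therefore does not show that a window lacks a variant form of the element. The bases of the ACACB window shown matched none of these motifs. GC content was 66.3% for SCD, 57.3% for ELOVL6 and 77.3% for ACACA, against 46.0% in the ACACB window.

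The KQ mutant had no site that recurred between its libraries at any of the 10 genes, and wild-type PPARγ had recurring sites at most of them. A reproducible KQ peak lay within 50 kb of 0 of the 10 genes, against a background of 2.68% of the 19974 protein-coding genes. With so low a background share, 0 of 10 is close to what genes in general show. A reproducible WT peak was found at 8 of the 10 genes, namely FASN, ACACA, ACACB, SCD, ELOVL6, FADS1, FADS2 and ME1, against 37.7% of all genes. ACLY and SREBF1 had WT peaks, but none in both libraries.

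In the pooled lists without the demand on libraries, 4 of the 10 genes had a KQ peak, against 16.4% of all genes, and 10 of 10 had a WT peak, against 67.1%. The windows of the 10 genes covered 1.95 Mb and held 3.08 KQ and 19.5 WT peaks per Mb. The windows of all protein-coding genes held 1.13 KQ and 10.3 WT peaks per Mb. Both groups were thus denser here than over genes in general, though the KQ density rests on 6 peaks, 3 of them at ACACB. Longer genes have wider windows, which peaks per Mb allow for and the counts of genes with a peak do not.

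**Figure D1:**
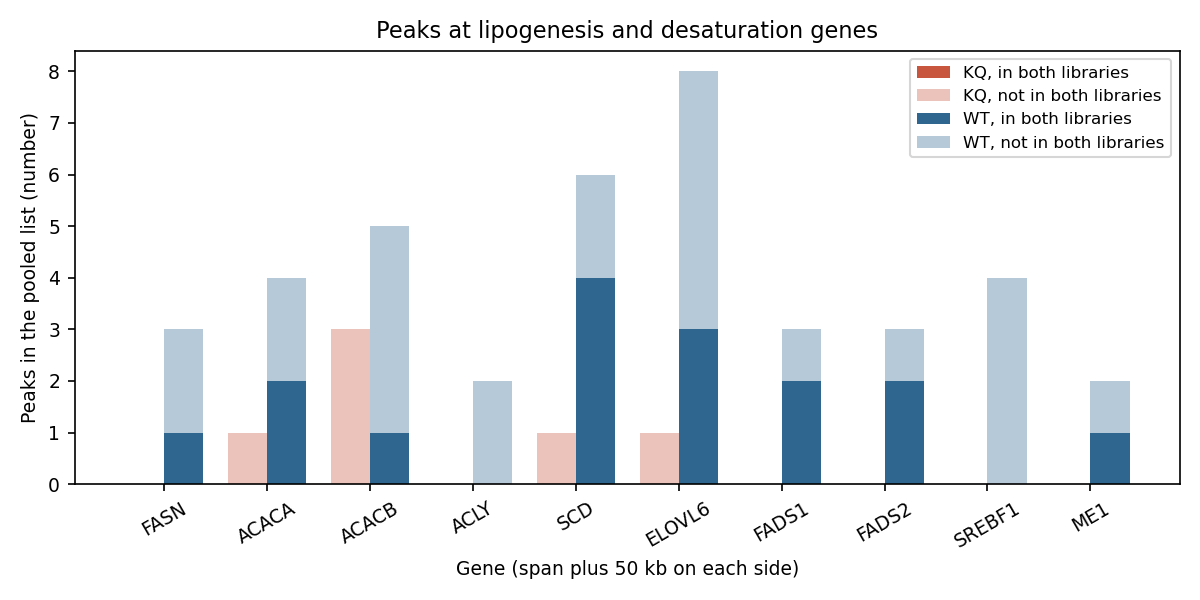
Number of pooled-list peaks with a summit within 50 kb of each gene, with KQ in red left of WT in blue. Dark bars are peaks found in both libraries of the group and pale bars the others. No KQ bar has a dark part, ELOVL6 has 8 WT peaks, 3 of them reproducible, and SCD 6, 4 of them reproducible, an order of the reproducible counts that turns in a 10 kb window (SCD 2, ELOVL6 3). FADS1 and FADS2 share 2 of their peaks.

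Within single libraries, the windows held 2 peaks in KQ library 1 and 1 in KQ library 2, against 24 in WT library 1 and 26 in WT library 2. The means were 1.5 ± 0.71 for KQ and 25 ± 1.41 for WT (SD, n = 2 each), a difference of -23.5 peaks (exact permutation test over libraries, two-sided, p = 0.33). The groups do not overlap, and 0.33 is the smallest p this design allows. Per 1000 peaks of the library the values were 1.58 and 0.97 for KQ and 1.32 and 1.46 for WT. On that scale the groups overlap (difference -0.11, exact permutation test, two-sided, p = 1, n = 2 each).

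At equal list length the pooled lists had as many peaks at these genes. There were 6 KQ peaks at 4 of the genes, against 6 WT peaks at 5 when only the 2846 WT peaks with the highest −log10 q were kept. Of all genes, 18.2% had a peak in that shortened WT list. At the 10 genes, 0 of the 6 KQ peaks were reproducible, against 12.4% of all pooled KQ peaks, and 6 of the 6 WT peaks were, against 96.9% of the shortened WT list. Ordering by −log10 q favours reproducible peaks, and both counts are near these backgrounds. When the reproducible WT list was cut to the length of the reproducible KQ list, ACACB alone of the 10 genes had a peak (background 3.25%).

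The acetyl-CoA carboxylases ACACA and ACACB held 4 of the 6 pooled KQ peaks. ACACB is the carboxylase isoform that sits at mitochondria and whose malonyl-CoA restrains fatty acid import. Inside it, at 109148057 to 109148244 on chromosome 12 (hg38), the pooled KQ list had a peak with a fold of 4.47, from 28 tags against 5.49 expected, which ranked 1278 of 2846 KQ peaks by −log10 q. Neither KQ library alone had a peak there. The WT peak on this site, at 109148005 to 109148314 with its summit 9 bp away, had a fold of 18.0, the highest WT fold of all 10 genes. It ranked 115 of 25164 WT peaks (−log10 q 67.6), from 74 tags against 3.16 expected, and its fold was 24.4 in WT library 1 and 11.9 in WT library 2. The strongest WT site of the set was thus called in KQ from the pooled libraries and from neither alone.

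ACACB had 3 pooled KQ peaks, the most of any of the genes, and all 3 lay inside the gene. The one at 109115879 to 109116065 had a fold of 4.13 (23 tags, 4.80 expected) and a summit 606 bases before the upstream start. A WT peak of fold 5.49 (11 tags) lay on it with a summit 3 bp away. Neither of this pair was found in a single library of its own group. The peak of KQ library 1 on the promoter itself, at 109116405 to 109116574, had a fold of 5.73 from 12 tags against 1.27 expected. It lay 340 bp from the pooled KQ peak and 306 bp from the WT one. The third KQ peak, at 109192376 to 109192685, overlapped no WT peak and was weak, with a fold of 3.47 and a −log10 q of 1.78. The remaining WT peaks of ACACB had folds of 6.86, 6.496 and 4.65 and were not reproducible. The last of these lay on the downstream start, with its summit 101 bases before it.

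ACACA, the cytosolic isoform that commits acetyl-CoA to lipogenesis, had the KQ peak with the best support. It lay at 37368729 to 37368927 on chromosome 17 with a fold of 5.86, from 29 tags against 4.12 expected, and ranked 592 of 2846. It was called in KQ library 2 with a fold of 7.45 and not in KQ library 1. The WT peak on the same site (37368665 to 37368937, summit 25 bp away) had a fold of 11.8 from 53 tags, 13.8 in WT library 1 and 8.11 in WT library 2. This site lies inside ACACA, 9.73 kb upstream of the start whose window is printed above.

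The ACACA start itself had a reproducible WT peak of fold 7.21 (37359091 to 37359360, 29 tags), with 6.12 and 4.69 in the WT libraries, and no peak in any KQ list. Of the other 2 WT peaks of ACACA, one of fold 6.35 was in neither WT library and one of fold 6.70 was in library 2 alone.

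SCD, which makes monounsaturated fatty acids, had 4 reproducible WT sites in the 50 kb window. Its count was 2 against 3 for ELOVL6 in a 10 kb window and by nearest gene, 1 against 2 inside the spans, and equal to that of ELOVL6 at 100 kb (4 each) and with reciprocal overlap (2 each). A pair lay upstream, inside the neighbouring gene PKD2L1. The one at 100315563 to 100315903 on chromosome 10 had a fold of 13.5 (33 tags), with 16.2 in WT library 1 and 8.74 in WT library 2, and lay 31.4 kb outside SCD. The one at 100307733 to 100308075 had a fold of 11.1 (45 tags), with 8.16 and 9.49, and lay 39.3 kb outside. Neither had a peak in any KQ list.

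The peak on the SCD start, at 100347166 to 100347360, had a fold of 8.30 (27 tags), 6.02 in WT library 1 and 6.86 in WT library 2, and no peak in any KQ list. The site downstream of the gene was the one SCD site with a KQ peak, at 100371152 to 100371386, with a fold of 3.79 (19 tags, 4.28 expected). KQ library 1 also had it, at a fold of 4.02 from 18 tags, and KQ library 2 did not. The WT peak there, 6.34 kb beyond the gene at 100371032 to 100371500, had a fold of 8.68 (29 tags), with 6.59 and 6.41 in the WT libraries. The KQ and WT summits lay 117 bp apart, the widest of the 5 shared sites. The other 2 WT peaks of SCD had folds of 7.55 and 6.38, each in 1 library.

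ELOVL6, which turns palmitate into stearate, had 8 WT peaks in the 50 kb window, of which 3 were reproducible. The peak on its start, at 110198591 to 110198999 on chromosome 4, had a fold of 11.6 (38 tags), with 8.39 in WT library 1 and 7.18 in WT library 2. A site 9.45 kb upstream of the span, at 110208531 to 110208793, had a fold of 8.76 (32 tags), with 5.87 and 7.91. No KQ list had a peak at either.

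Inside ELOVL6 a pooled KQ peak at 110107014 to 110107199 had a fold of 3.61 from 15 tags against 3.43 expected, and neither KQ library had one. The third reproducible WT site of the gene lay on it, at 110107051 to 110107224 with its summit 15 bp away, with a fold of 7.39 from 21 tags, 4.72 in WT library 1 and 6.91 in WT library 2. The other 5 WT peaks of ELOVL6 had folds of 4.08 to 7.32, and 1 of them was in a single library. At both SCD and ELOVL6 the peak on the start had no KQ counterpart, and the KQ peak lay elsewhere. Of all reproducible WT peaks only 20.1% had a KQ peak, and the upstream reproducible sites of both genes had none either.

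FADS1 and FADS2 are adjacent on chromosome 11, and 2 of the 3 WT peaks of each gene are the same peaks. The shared reproducible site, inside FADS2 at 61820233 to 61820415, had a fold of 7.42 (24 tags), with 6.54 in WT library 1 and 5.27 in WT library 2. A peak of fold 5.83 on the FADS1 start (61816877 to 61817036, summit 74 bases after it) was in WT library 1 and not in WT library 2.

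The other reproducible site of each desaturase lay in a neighbour. That of FADS1 was inside MYRF at 61756510 to 61756721, 43.0 kb outside, with a fold of 8.74 and 6.92 and 7.18 in the WT libraries. That of FADS2 was inside FADS3, a paralogue, at 61888081 to 61888553, with a fold of 6.82 and 6.54 and 5.95 in the WT libraries. No KQ list had a peak in the window of either desaturase.

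FASN and ME1 had reproducible WT sites only far from the gene. The FASN site lay 47.2 kb outside the span, inside LRRC45, at 82031007 to 82031247 on chromosome 17, with a fold of 10.6 (20 tags) and 8.42 and 7.77 in the WT libraries. The ME1 site, at 83474352 to 83474577 on chromosome 6, lay 43.4 kb outside and in no protein-coding gene, with a fold of 12.01 (30 tags) and 10.9 and 7.78 in the WT libraries. The remaining peaks of both genes, with folds between 4.61 and 5.04, also lay outside the spans. KQ had no peak at either gene in any list.

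ACLY, the source of cytosolic acetyl-CoA, had 2 WT peaks, both inside the gene and each in 1 library. The one at 41895090 to 41895250 on chromosome 17 had a fold of 6.97 and was in WT library 1 at 8.02. The one at the upper end of the span (41930399 to 41930577) had a fold of 4.64 and was in WT library 2 at 6.08. It overlaps that end, at 41930545, which is the 5′ end of the RefSeq span since ACLY is on the minus strand. Its summit lay 11450 bases before the nearest listed start. SREBF1 had 4 WT peaks with folds of 6.07, 3.26, 7.36 and 3.29. Of these the first, inside the gene 1841 bases after its start, was in WT library 1, and the third, inside TOM1L2, was in WT library 2. The others were in neither library, and no KQ list had a peak at ACLY or SREBF1.

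**Figure D2:**
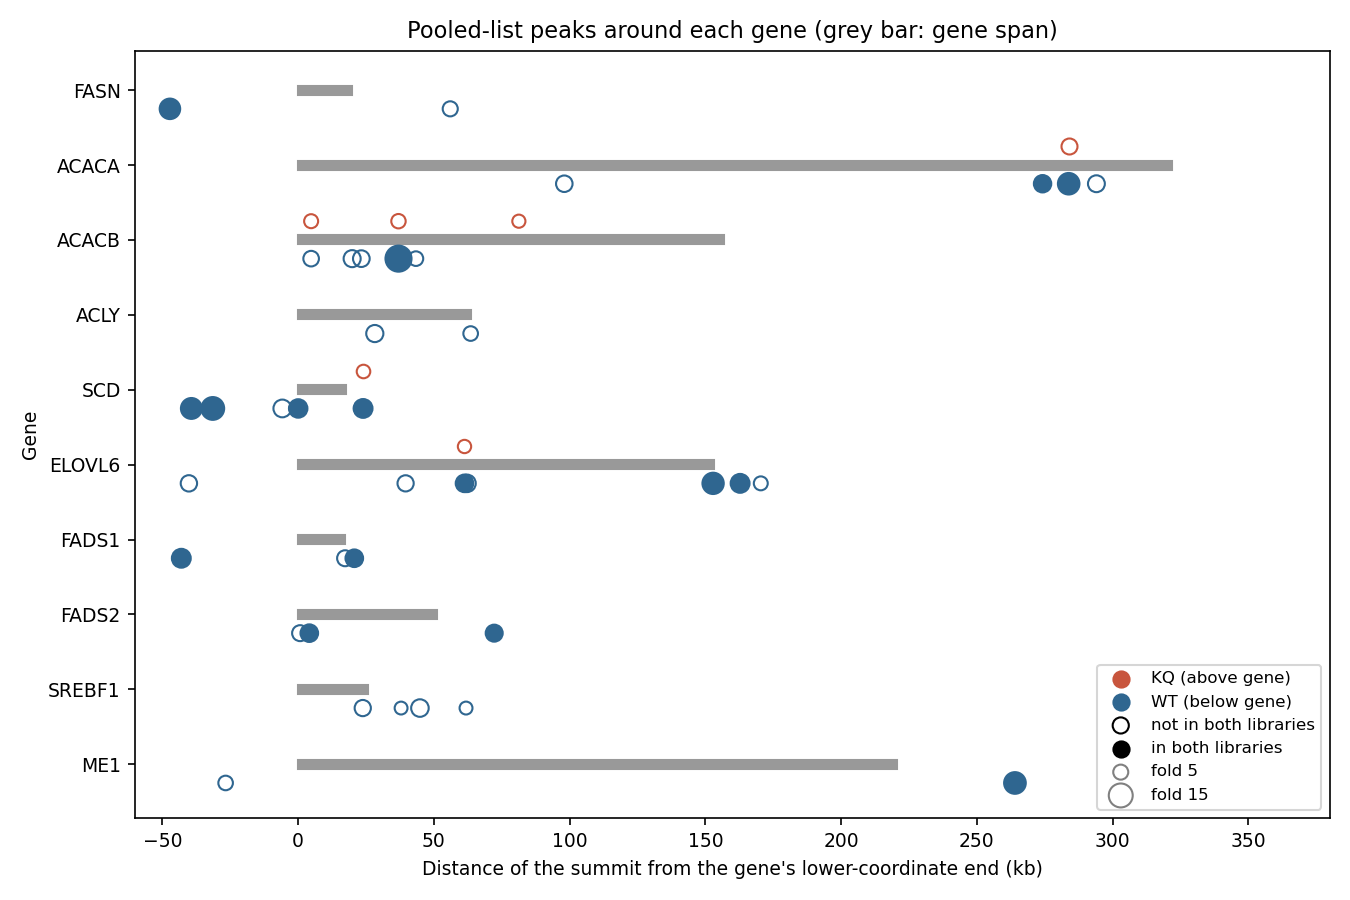
Positions of pooled-list peaks around each gene, in kb from the gene's lower-coordinate end, with KQ in red above the gene span (grey bar) and WT in blue below it. Filled circles are peaks found in both libraries of the group, open circles the others, and size grows with the authors' fold. The 6 KQ circles are all open, and 5 of them stand over a WT circle.

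The WT libraries agreed on 15 of the 38 sites (39.5%, exact 95% interval 24.0 to 56.6), against 31.9% of all pooled WT peaks. A further 8 were in library 1 alone, 5 in library 2 alone and 10 in neither (background 20.4% for neither). The interval covers counting error over sites alone, and sites of 1 gene are not independent. Reproducible sites had folds of 6.82 to 18.0 and between 20 and 74 tags. The other 23 had folds of 3.26 to 7.55 and between 11 and 22 tags. Among the 15 reproducible sites the fold was higher in WT library 1 at 10 and in WT library 2 at 5, with medians of 6.92 and 7.18. WT library 2 had fewer tags, 7 to 27 tags at these summits against 12 to 52 in library 1.

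**Figure D3:**
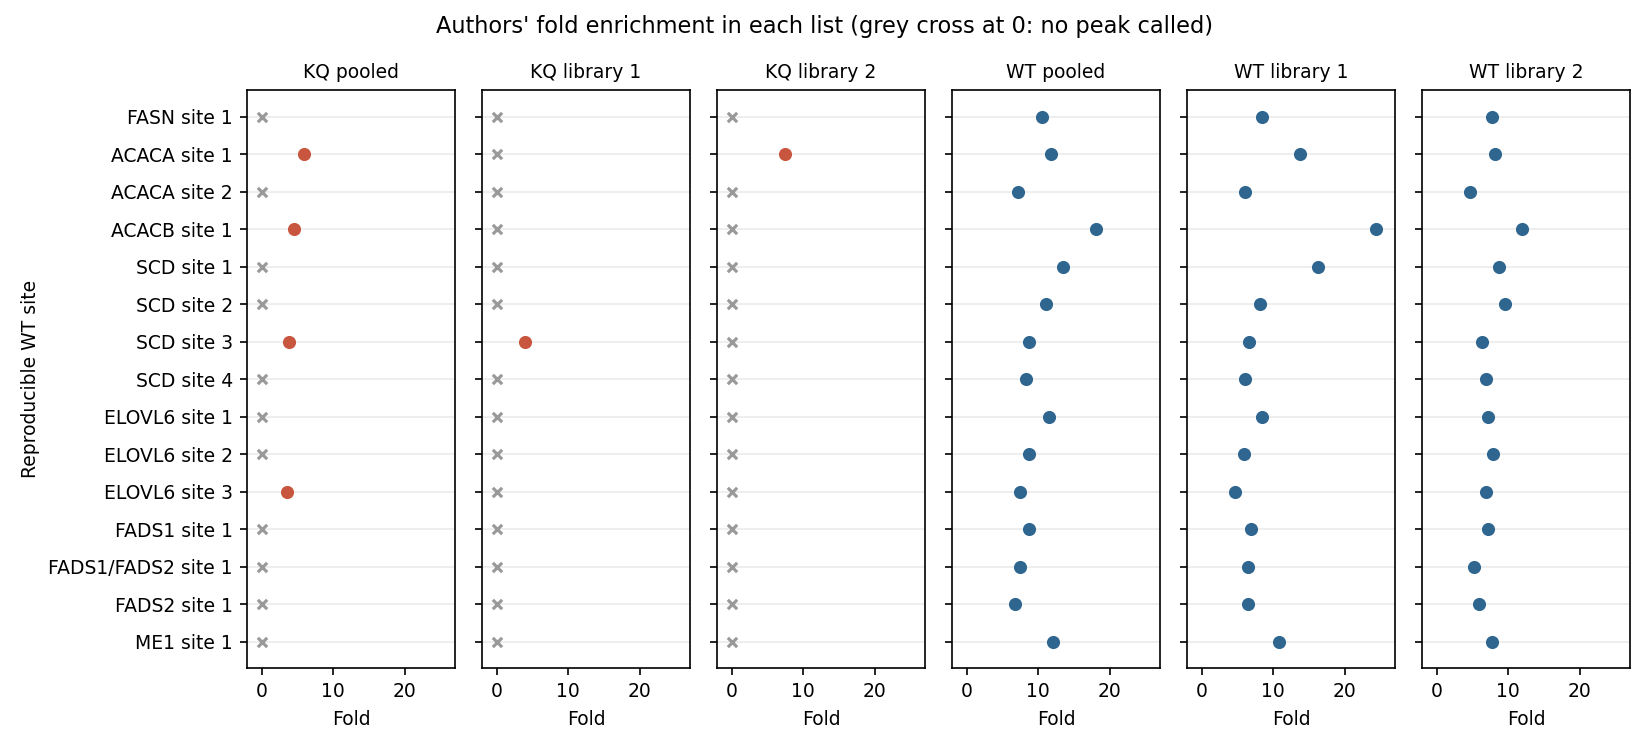
Authors' fold enrichment at the 15 reproducible WT sites in each of the 6 lists, with the KQ lists (red) left of the WT lists (blue). A grey cross at 0 marks a site with no peak in that list, and sites of a gene are numbered by descending pooled WT fold. The KQ lists have 4 pooled values and 1 in each library, and both WT libraries have 15.

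KQ peaks lay mostly on WT sites. Of the 6 KQ peaks 5 overlapped a WT peak, against 80.4% of all pooled KQ peaks, and 4 of the 5 lay on a reproducible WT site. Taken from the WT side, 5 of 38 sites (13.2%, exact 95% interval 4.41 to 28.1) had a KQ peak, against 9.1% of all WT peaks. Among the reproducible sites 4 of 15 had one, against 20.1%. Both shares are near those of the whole list. The interval again covers counting error over sites alone, and sites of 1 gene are not independent. With the list of either single KQ library the share of 13.2% became 2.63%, outside the interval. The share over all WT peaks was not computed for those lists. The 5 shared WT sites had a median fold of 8.68 and the 33 unshared ones 6.70, and over all WT peaks these medians were 8.997 and 6.01.

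Of the 7 WT sites with a fold above 10, 5 had no KQ peak, close to the 71.6% of all pooled WT peaks above that fold. They were the 2 upstream SCD sites, the ELOVL6 start and the distal sites of FASN and ME1. The 2 that had one were those of ACACA and ACACB. The folds of the 6 KQ peaks ran from 3.47 to 5.86 with a median of 3.96, against 4.82 over the pooled KQ list. Of the 6, 0 were in both KQ libraries (background 12.4%) and 4 were in neither (background 45.5%).

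**Figure D4:**
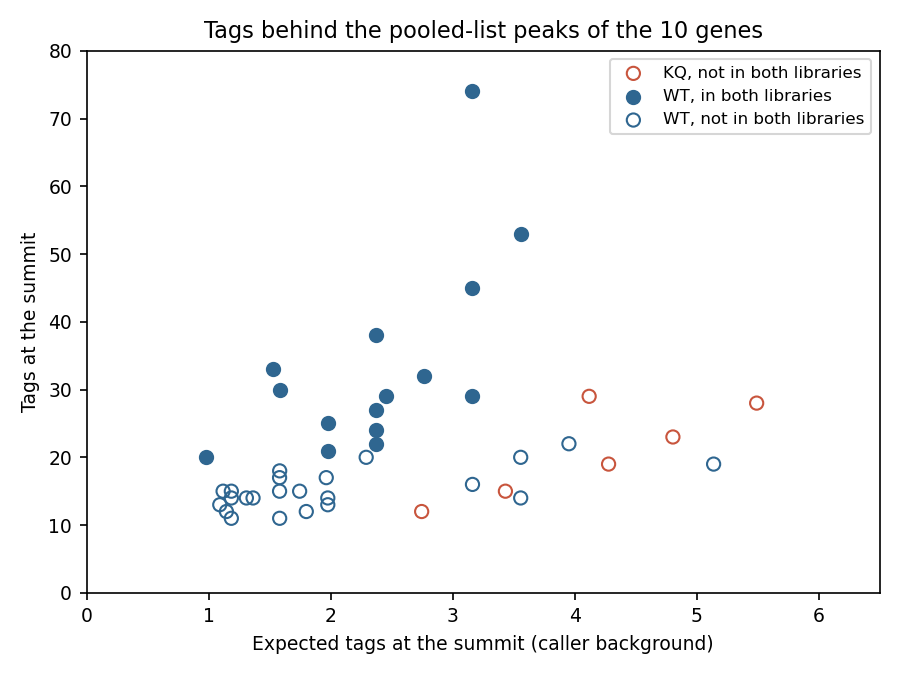
Tags at the summit against the expected background for each pooled-list peak of the 10 genes, with KQ in red and WT in blue. Filled circles are peaks in both libraries of the group. The KQ peaks have 12 to 29 tags over 2.75 to 5.49 expected, and the reproducible WT peaks 20 to 74 tags over 0.982 to 3.56 expected.

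Peaks near starts were a minority in both groups. A summit lay within 1 kb of a listed protein-coding start for 1 of the 6 KQ peaks (background 5.56%) and for 6 of the 38 WT peaks (background 6.52%). The KQ one is the ACACB peak 606 bases before the start. The WT ones lie at SCD, ELOVL6, ACACA, FADS1 and both ACACB starts. In all, 5 of the 6 KQ summits and 19 of the 38 WT summits were inside a gene of the set, and the RefSeq spans used do not separate exons from introns.

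Most of these sites lie in the window of other genes as well. By the share of pooled WT peaks held in common (Jaccard index, where 1 means the same peaks), the gene most like ACLY was ODAD4 and the gene most like FADS1 was FEN1, both with an index of 1. The index was 0.857 for SCD with PKD2L1, 0.833 for ACACB with UNG, 0.75 for ACACA with C17orf78, 0.667 for FASN with ASPSCR1 and 0.6 for SREBF1 with RAI1. It was 0.5 for FADS2 with FADS1 and for ME1 with DOP1A, and 0.125 for ELOVL6 with EGF. Of the 8 ELOVL6 peaks 1 was shared with another protein-coding gene.

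The WT peaks just inside it were 47.6 and 47.2 kb from FASN, with folds of 4.70 and 10.6. Those just outside were 50.8 kb from ELOVL6 (fold 4.42), 57.2 kb from ACACA (5.95) and 59.6 kb from FADS2 (8.74). The last of these is the MYRF site already counted for FADS1. For KQ the farthest peak inside was that of SCD, 6.46 kb away, and the nearest outside lay 94.4 kb from FADS2 (fold 4.84).

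The rest of the pathway was followed in 50 further genes. A reproducible KQ peak was found at 1 of them and a reproducible WT peak at 22 (44%), close to the backgrounds of 2.68% and 37.7%. FADS3 is among the 22 through the site already counted for FADS2, so the sets are not fully separate. The KQ gene was PC, pyruvate carboxylase, which refills the citrate pool, with a KQ fold of 5.02 at 66970950 to 66971331 on chromosome 11, 12.7 kb outside the gene. A WT peak overlapped that site.

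Among 14 regulators of lipogenesis 0 had a reproducible KQ peak (background 2.68%) and 8 a reproducible WT peak (background 37.7%). The same backgrounds apply to each subgroup below, and at 2.68% a count of 0 is close to what genes in general show. The highest folds of reproducible WT peaks were 19.5 near USF1, an E-box factor that acts on the FASN promoter, and 16.5 inside SCAP, which escorts SREBP from the endoplasmic reticulum. Of 10 genes of carbon and NADPH supply, 1 had a reproducible KQ peak and 5 a reproducible WT peak. ME3, a mitochondrial malic enzyme, had a WT fold of 17.6.

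Among 12 elongation genes 0 had a reproducible KQ peak (background 2.68%) and 4 a reproducible WT peak (background 37.7%). ELOVL5, which lengthens polyunsaturated chains, led with 13.6, followed by HSD17B12, the ketoacyl-CoA reductase of elongation, with 10.6. Among 8 desaturation genes 0 had a reproducible KQ peak and 4 a reproducible WT peak. In the pooled lists 2 of them had a KQ peak (background 16.4%) and 7 a WT peak (background 67.1%). For the elongation genes and for the regulators these pooled counts were 2 and 10. SCD5, a second stearoyl-CoA desaturase, had a WT fold of 16.0, and CYB5R3, which feeds electrons to the desaturases, 12.5. Mitochondrial fatty acid synthesis had 0 of 6 genes with a reproducible KQ peak and 1 of 6 with a reproducible WT peak, namely HSD17B8 (fold 6.69).

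**Figure D5:**
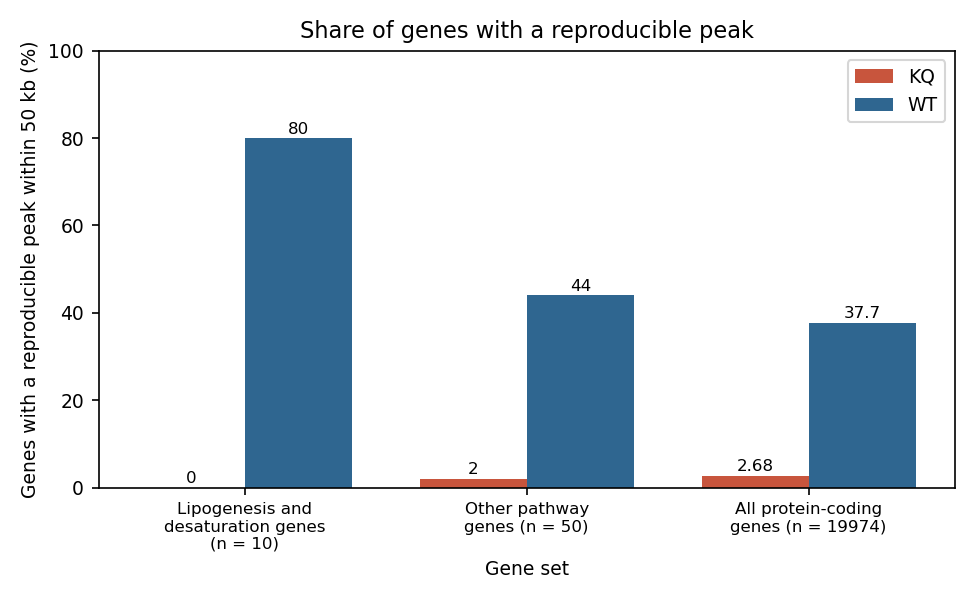
Percentage of genes with a reproducible peak within 50 kb, for the 10 lipogenesis and desaturation genes, the 50 other pathway genes and all 19974 protein-coding genes, with KQ in red left of WT in blue. The KQ bars are 0, 2 and 2.68% and the WT bars 80, 44 and 37.7%.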

How the data were processed

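PPARγ ChIP-seq peak lists of 4 libraries (KQ and WT, 2 each) and of the pooled libraries of each group were used, 6 lists in all. The submitters' processing notes name hg38, Bowtie2 (version 2), MACS2, bedtools, deepTools and HOMER. Not given in the sources used here are the caller's settings and whether input served as control. Deposited for every peak are a fold enrichment (a ratio made by the authors), −log10 of the p-value and of the q-value, an integer score and the summit. The deposited score is 10 times −log10 q and was not used further.

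Peaks on chromosomes 1 to 22 and X were kept, and gene spans and promoters came from RefSeq GRCh38.p14. Promoter shares are over the genes listed in that table. Tags per summit were recovered from the deposited fold, taken as (tags + 1)/(background + 1), and the Poisson p-value. Peaks per library were compared by an exact permutation test, two-sided. Everything else is description beside the share over all genes or peaks. Named peaks are every pooled KQ peak, every reproducible WT peak and the highest-fold genes of each pathway subgroup. Other WT peaks and single-library peaks that are named were chosen after their values were seen. A gene that this rule names is not reported here. The genes and lists were chosen with earlier results of these data known. Scripts ran in Python 3.11.15 with pandas 2.3.3 and scipy 1.17.1 and were tested on simulated data.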

Additional observations from a re-analysis of the deposited data

How the results depend on the processing

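The counts of reproducible KQ genes and peaks stayed at 0 in the windows of 10 kb, 100 kb and the gene span, with the nearest gene, interval midpoints, −log10 q of at least 5 and reciprocal overlap of 50%. They were 1 when either KQ library was left out, since 1 library then sufficed: the ACACA site without library 1 and the SCD site without library 2. Pooled KQ peaks numbered 6, and 3 at −log10 q of at least 5. Reproducible WT sites numbered 15, and 9 in the 10 kb window, 7 inside the span and 9 with the nearest gene. They numbered 19 in the 100 kb window, 11 at −log10 q of at least 5 and 12 with reciprocal overlap of 50%. With a WT library left out they numbered 20 to 23. The genes with such a site numbered 8, and 5 inside the span and 5 with the nearest gene. In the 10 kb window they numbered 6, without FASN and ME1. At −log10 q of at least 5 they numbered 7, without FADS2. They numbered 9 in the 100 kb window and 10 when either WT library was left out. The share over all genes was not computed under these settings, so whether these counts exceed it is not known. Pooled WT peaks numbered 38, and 24 in the 10 kb window, 19 inside the span and 25 with the nearest gene. With the WT list at the KQ length there were 6 WT peaks, 6 of them reproducible, at 5 genes, and 33.3% had a KQ peak. With the reproducible WT list at the KQ length 1 gene was left. The share of WT sites with a KQ peak, 13.2%, was 2.63% to 16.7% with a library left out, the lower value with the list of either single KQ library. The difference in peaks per library lay between -24.5 and -22.5 with a library left out. The labels do not say that a replicate number marks a shared culture. With the replicate block the difference was again -23.5 (exact sign-flip permutation test, p = 0.5, the smallest 2 pairs allow). A site missed in a list is not shown to be unbound, and the lists do not hold the tag numbers needed to test the difference at a site.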

Other observations

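Single libraries held 8 peaks in these windows that overlapped no pooled peak of their group. KQ library 1 had 1, the ACACB promoter peak, WT library 1 had 1 and WT library 2 had 6. The peak of WT library 1 was near ACACA with a fold of 5.68. Those of WT library 2 were near FADS2 (3.45), SREBF1 (4.90 and 5.53), ACACA (4.90), ACLY (5.72) and ELOVL6 (4.79) and rested on 4 to 7 tags each.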
